A study of Mus musculus with 8 samples.

Results

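The genes described here encode potassium channel subunits, and they were followed in mouse embryonic fibroblasts after c-Src was switched on. They were chosen by name, as every probe that is not a control and whose gene symbol starts with Kcn, goes on with letters and ends in a number. That rule found 132 probes for 92 genes, out of 55681 probes for 36095 names on the array. Of these, 35 genes with 40 probes were well above background on both arrays of at least 1 time, which is the scanner software's own call for a spot brighter than its surroundings, and they are the ones described across time. The rule uses names and detection, and RNA signals do not show whether a protein was made or reached the membrane.

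All cells were Csk-/- mouse embryonic fibroblasts transfected with pBKT2-c-Src, a vector from which doxycycline at 1 µg/ml switches on c-Src. Csk is the kinase that holds Src family kinases in check, so every array, the 0 h arrays included, comes from cells without it. The groups are 0 h, 6 h, 24 h and 72 h of induction, with 2 arrays each and 8 in all. The labels do not give the promoter's cell type, the number of clones or the origin of the fibroblasts, and cells with intact Csk or given doxycycline alone were not analysed here. Time under induction therefore goes together with doxycycline, with time in culture and with the row of the slide, and these cannot be told apart.

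Potassium channels let potassium leave the cell down its gradient and so set the resting membrane potential. Voltage-gated channels open on depolarisation, calcium-activated channels open when cytosolic calcium rises, inward rectifiers and 2-pore channels carry the current at rest, and auxiliary subunits change the gating or the trafficking of the pore. In fibroblasts these currents bear on cell volume, calcium entry, migration and division. Src family kinases are known to phosphorylate several channel proteins, which these RNA measurements cannot show.

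Signals are given as the processed intensity of a probe, scaled so that all arrays share 1 upper quartile. A difference is in log2 units, tested with limma over 20839 genes with Benjamini-Hochberg adjustment, and a gene is called higher or lower when its adjusted p is under 0.05. Probes differ in how brightly they bind, so levels are compared between times for 1 probe and never between genes. On single arrays 49.9% to 54.7% of spots passed as well above background, the lowest scaled signal to pass was at most 15.2 on any array, and 0 spots were saturated. The 2 arrays of a time correlated with r between 0.9964 and 0.9975 across genes. Nothing in the labels ties the duplicates to separate cultures. The p-values then reflect only how far these arrays differ, which may be technical. Src itself had signals of 149 and 166 at 0 h, 4186 and 4276 at 6 h, 3725 and 3765 at 24 h, and 3093 and 3081 at 72 h, whereas Csk was well above background on none. Of 14 fibroblast markers, 10 could be tested, and Thy1 was well above background on none.

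The promoters of 4 genes that the results turn on are shown first, 3 whose signal fell and Kcnn4, whose signal rose. Each is the 250 bases before an annotated start, 5′ to 3′ on the gene's strand, from RefSeq on GRCm38.p6, with CpG dinucleotides in capitals. The table held windows for 67 of the 92 genes and 25 of the 35. Kcns3 has 2 annotated starts, at chr12:11150374-11150623 and chr12:11150843-11151092, both on the minus strand. Kcnj8 is at chr6:142571615-142571864 and Kcnmb4 at chr10:116473524-116473773, on the minus strand, and Kcnn4 is at chr7:24370013-24370262 on the plus strand.
Kcns3 first window: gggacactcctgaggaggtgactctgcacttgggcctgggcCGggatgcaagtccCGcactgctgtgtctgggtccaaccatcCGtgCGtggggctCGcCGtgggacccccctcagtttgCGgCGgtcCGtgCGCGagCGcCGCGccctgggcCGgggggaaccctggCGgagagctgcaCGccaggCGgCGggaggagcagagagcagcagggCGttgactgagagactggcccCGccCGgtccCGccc
Kcns3 second window: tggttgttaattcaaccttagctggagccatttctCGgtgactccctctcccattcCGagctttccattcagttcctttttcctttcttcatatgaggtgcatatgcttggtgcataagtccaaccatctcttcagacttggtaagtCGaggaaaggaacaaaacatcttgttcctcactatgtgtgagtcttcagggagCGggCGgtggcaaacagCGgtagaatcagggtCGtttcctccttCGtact
Kcnj8: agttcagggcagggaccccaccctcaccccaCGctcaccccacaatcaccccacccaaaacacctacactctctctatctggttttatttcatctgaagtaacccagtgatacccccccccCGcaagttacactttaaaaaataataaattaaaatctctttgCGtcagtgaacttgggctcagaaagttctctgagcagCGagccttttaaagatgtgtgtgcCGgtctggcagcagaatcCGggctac
Kcnmb4: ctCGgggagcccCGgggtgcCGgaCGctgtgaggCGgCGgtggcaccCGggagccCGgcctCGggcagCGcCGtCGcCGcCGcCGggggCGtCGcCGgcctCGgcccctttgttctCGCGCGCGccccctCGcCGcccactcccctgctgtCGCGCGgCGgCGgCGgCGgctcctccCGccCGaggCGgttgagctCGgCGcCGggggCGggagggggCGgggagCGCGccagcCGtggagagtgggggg
Kcnn4: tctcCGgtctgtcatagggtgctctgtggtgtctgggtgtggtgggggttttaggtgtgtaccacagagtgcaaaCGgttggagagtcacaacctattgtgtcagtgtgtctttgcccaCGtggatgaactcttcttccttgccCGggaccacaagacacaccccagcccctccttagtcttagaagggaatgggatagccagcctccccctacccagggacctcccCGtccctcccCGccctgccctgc

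The 3 genes whose signal fell do not share a base composition. The Kcnmb4 window holds 43 CpG and is 83.6% G or C, and 0.712% of all 32851 windows in the table hold as many CpG. The Kcnj8 window has 6 CpG and 49.2% G or C, and the Kcns3 windows have 23 and 8 CpG. Kcnn4 has 6 CpG and 58.8% G or C, and the median over all windows is 6 CpG. The AP-1 motif TGANTCA, searched on both strands, stands in none of these 5 windows, in 1 of the 31 windows of tested potassium channel genes, that of Kcnip3, and in 6.75% of all windows. The cyclic AMP response element TGACGTCA stands in 0 of the 31 and in 1.55% of all windows, and the letters of the 2 motifs do not let them overlap. A match would be a description and not a binding site, and no match says only that these letters are not in the window.

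Most potassium channel genes gave no usable signal in these fibroblasts. Of the 57 genes below the limit, 48 had no probe well above background on a single array, and 9 were above it on some arrays only. Detection was fullest among voltage-gated subunits, with 17 of 40 genes kept and 13 on all 8 arrays, and among 2-pore channels, with 7 of 14 kept and 5 on all arrays. Of the inward rectifiers 4 of 15 were kept, of the auxiliary subunits 4 of 15, and of the calcium-activated and related channels 3 of 8. Kcnma1, the pore of the large-conductance calcium-activated channel, has 3 probes, and its only signal well above background was 74.7 on 1 array at 72 h, against 3.63 on the other array of that time. Kcnmb1, its smooth muscle beta subunit, and Kcnj11, the pore of the pancreatic ATP-sensitive channel, had no signal well above background.

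**Figure D1:**
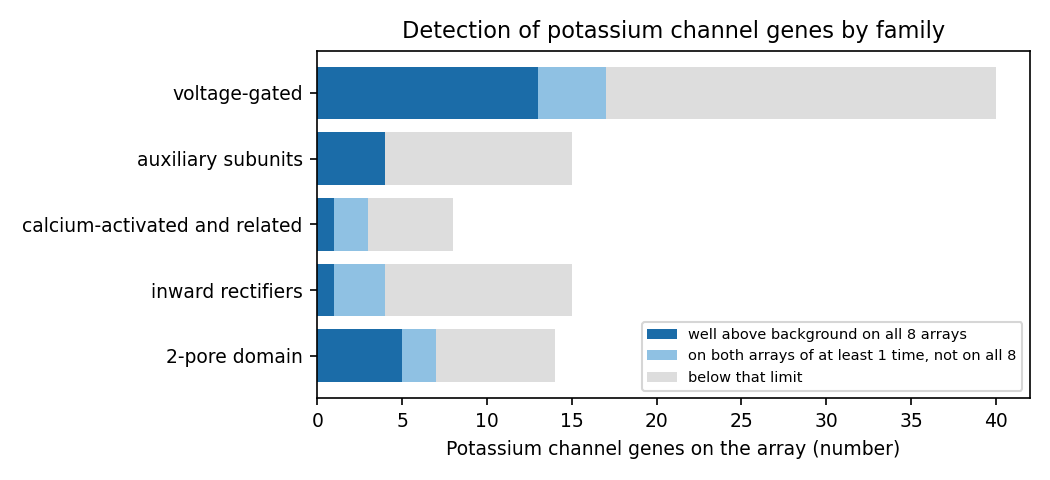
Number of potassium channel genes on the array by family (horizontal axis), split by detection. Dark bars are genes well above background on all 8 arrays, light bars genes above it on both arrays of at least 1 time but not on all 8, and grey bars the rest. Voltage-gated subunits make up 17 of the 35 kept genes, and 24 of the 35 are on all 8 arrays.

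The limit itself fell among genes with uneven signals. Kcna10 stayed just outside, with signals of 67.4 on 1 array at 0 h and 24.6 on 1 array at 6 h and none above background elsewhere. Kcnj14 was well above background on 3 arrays, never both of a time. Just inside was Kcnj8, on 3 of 8 arrays, which entered through 0 h alone. Kcnc1 and Kcnd3 also entered only through 0 h, and Kcnk9 only through 24 h. Kcnn2 entered only through 24 and 72 h, and Kcng2 and Kcnn3 only through 0 and 6 h. A gene that enters through the time at which it is high tends to differ from the other times, so the 24 genes on all 8 arrays are counted separately below.

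At 6 h few potassium channel genes had changed. Of the 35, 1 was called higher and 3 lower, where 10.3% of all tested genes were called higher and 7.24% lower. The median difference of the 35 was -0.15, against 0.0048 over all genes. Kcnab3 rose, and Kcnmb4, Kcnc4 and Kcnh3 fell. Only the fall of Kcnh3 kept its call whichever array was left out.

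At 24 h, 3 of the 35 were called higher and 11 lower, where 21.4% of all genes were higher and 20.1% lower. At 72 h, 4 were higher and 13 lower, where 27.5% of all genes were higher and 24.6% lower. The share of potassium channel genes called lower, 31.4% at 24 h and 37.1% at 72 h, stood above that of all genes, and the share called higher, 8.57% and 11.4%, stood below it, which was not tested. Both comparisons use the same 0 h arrays. Among the 24 genes on all arrays, 2 were higher and 7 lower at 24 h, and again 2 and 7 at 72 h. These are 8.33% higher and 29.2% lower at both times. With only probes on all 8 arrays tested, 4434 of 18852 genes were higher and 4048 lower at 24 h, and 5669 and 4855 at 72 h. The median difference of the 35 was -0.16 at 24 h and -0.22 at 72 h. Setting genes with only a bound to that bound left it unchanged. Those genes stay on the same side of the median, so this could not have moved it.

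How many fell depends on the scaling at 24 h. With arrays scaled on their median, 5 of the 35 genes were higher and 6 lower at 24 h, and 5 higher and 11 lower at 72 h. Under that scaling 6043 of all 20839 genes were higher and 2052 lower at 24 h, and 8024 and 2664 at 72 h. The median of all genes itself moved to 0.13 at 24 h and 0.18 at 72 h. Leaving out replicate 1 of 0 h left 6 genes lower at 24 h. No called gene changed direction under any of the 17 alternatives. The normexp background correction, with its offset, gave smaller differences from 0 h for 21 of 22 calls of genes on all 8 arrays, 7 of them by over 1.5 times, and for 13 of 13 calls of the other genes, all of them by over 1.5 times.

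**Figure D2:**
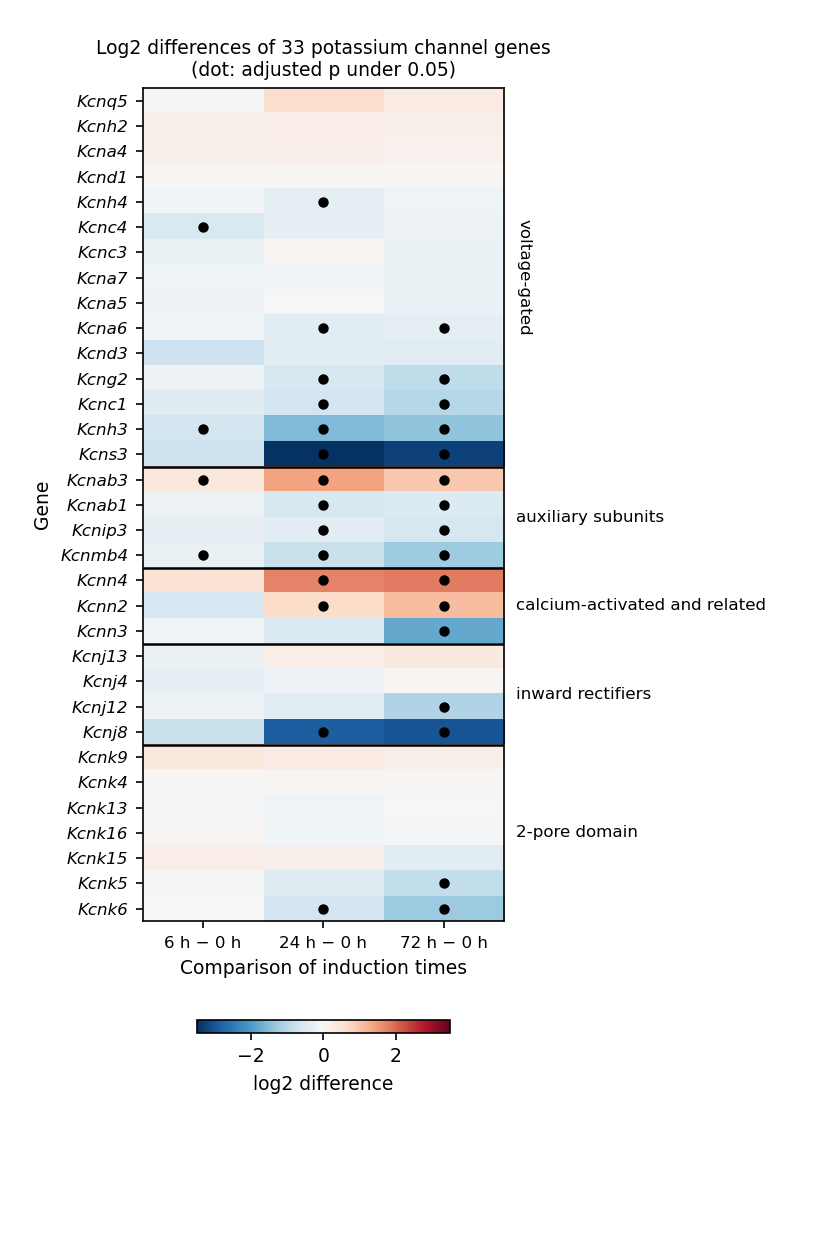
Log2 difference from 0 h (colour, blue lower and red higher) of 33 potassium channel genes at 6, 24 and 72 h, by family, with a dot where the adjusted p is under 0.05. Kcns3 and Kcnj8 have the darkest blue at 24 and 72 h and Kcnn4 the darkest red, and the fitted values of Kcnj8 rest on times at which it was not well above background.

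Among the pore-forming voltage-gated subunits the signal that fell furthest was that of Kcns3, at chr12:11097716-11097775 on mm9. Kcns3 is an electrically silent subunit, which makes no channel alone and changes the kinetics of the channels it joins. Its signals were 723 and 743 at 0 h, 445 and 445 at 6 h, 76.1 and 59.4 at 24 h, and 51.8 and 113 at 72 h. The 6 h arrays lay between the 0 h arrays and the later ones, and no later array overlapped 0 h. The difference was -3.45 (SE 0.35, adjusted p = 0.00105), or 10.9-fold lower, at 24 h and -3.26 (adjusted p = 0.00081) at 72 h, and both calls held in every alternative, with -2.62 and -2.52 under normexp. At 6 h it was -0.72, with an adjusted p of 0.218 that missed the threshold, and the step from 6 to 24 h was -2.73 (adjusted p = 0.00483).

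Kcnh3, a subunit of the ether-a-go-go-like family that is best known from forebrain neurons, was lower than at 0 h at every later time. It had 499 and 445 at 0 h, 289 and 311 at 6 h, 162 and 163 at 24 h, and 177 and 180 at 72 h, and its probe is at chr15:99073172-99073231 on mm9. The 4 arrays of 24 and 72 h lay below both of 6 h, which lay below both of 0 h. The difference was -0.65 (SE 0.07, adjusted p = 0.00451) at 6 h, -1.54 (adjusted p = 0.000138) at 24 h and -1.40 (adjusted p = 7.55e-05) at 72 h. These held in every alternative.

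Smaller falls were seen in other voltage-gated subunits. Kcnc1, a Shaw family subunit known from fast-spiking neurons, had 35.8 and 25.9 at 0 h, 26.1 and 19.6 at 6 h, 20.2 and 17.8 at 24 h, and 16.7 and 13.8 at 72 h. Every later array but replicate 1 of 6 h lay below both 0 h arrays, and only 5 of the 8 signals were well above background, both of a time at 0 h alone. Its signal, which passed through the time at which it was highest, was 1.60-fold lower at 24 h (adjusted p = 0.0477) and 2.01-fold lower at 72 h (adjusted p = 0.0103). The first of these moved from -0.68 to -0.45 without replicate 1 of 0 h (adjusted p = 0.186) and lost its call without either array of 24 h or 72 h too. The second lost it without replicate 2 of 72 h (adjusted p = 0.0562).

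Kcng2, another silent subunit, differed by -0.56 (adjusted p = 0.0262) at 24 h and -0.89 (adjusted p = 0.00374) at 72 h. With normexp the differences were -0.11 at 24 h, where the call was lost, and -0.19 at 72 h. Kcng2 passed the limit through 0 and 6 h alone, the times at which its signal was highest. It was well above background on 6 arrays, with signals of 13.1 and 11.2 at 72 h, against 21.8 and 23.1 at 0 h, and the 24 h call was lost without either 0 h array (adjusted p = 0.0732 and 0.106) or replicate 2 of 24 h. Kcna6, a Shaker family subunit, differed by -0.41 (adjusted p = 0.0201) at 24 h and -0.33 (adjusted p = 0.0348) at 72 h. Its signals lay between 1410 and 1516 at those times, against 1954 and 1809 at 0 h. Kcnh4, a relative of Kcnh3, was called only at 24 h, by -0.33 (adjusted p = 0.036), and Kcnc4, a relative of Kcnc1, only at 6 h, by -0.54 (adjusted p = 0.0244). These calls depended on the processing. Over all 17 alternatives the 72 h call of Kcna6 was lost in 8, with a difference as small as -0.15 and adjusted p up to 0.403. The call of Kcnh4 was lost in 11 (adjusted p up to 0.291). That of Kcnc4 was also lost in 11, among them normexp, with a difference of -0.12 (adjusted p = 0.253). Leaving out single arrays ended these calls too. Kcna6 lost its 24 h call without replicate 1 of 0 h or either array of 24 h, and its 72 h call without any 1 array of 0, 24 or 72 h (adjusted p up to 0.144). Kcnh4 lost its call without any 1 array of 0, 6 or 24 h (adjusted p up to 0.152), and Kcnc4 without any 1 of 0, 6 or 72 h (adjusted p up to 0.119).

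**Figure D3:**
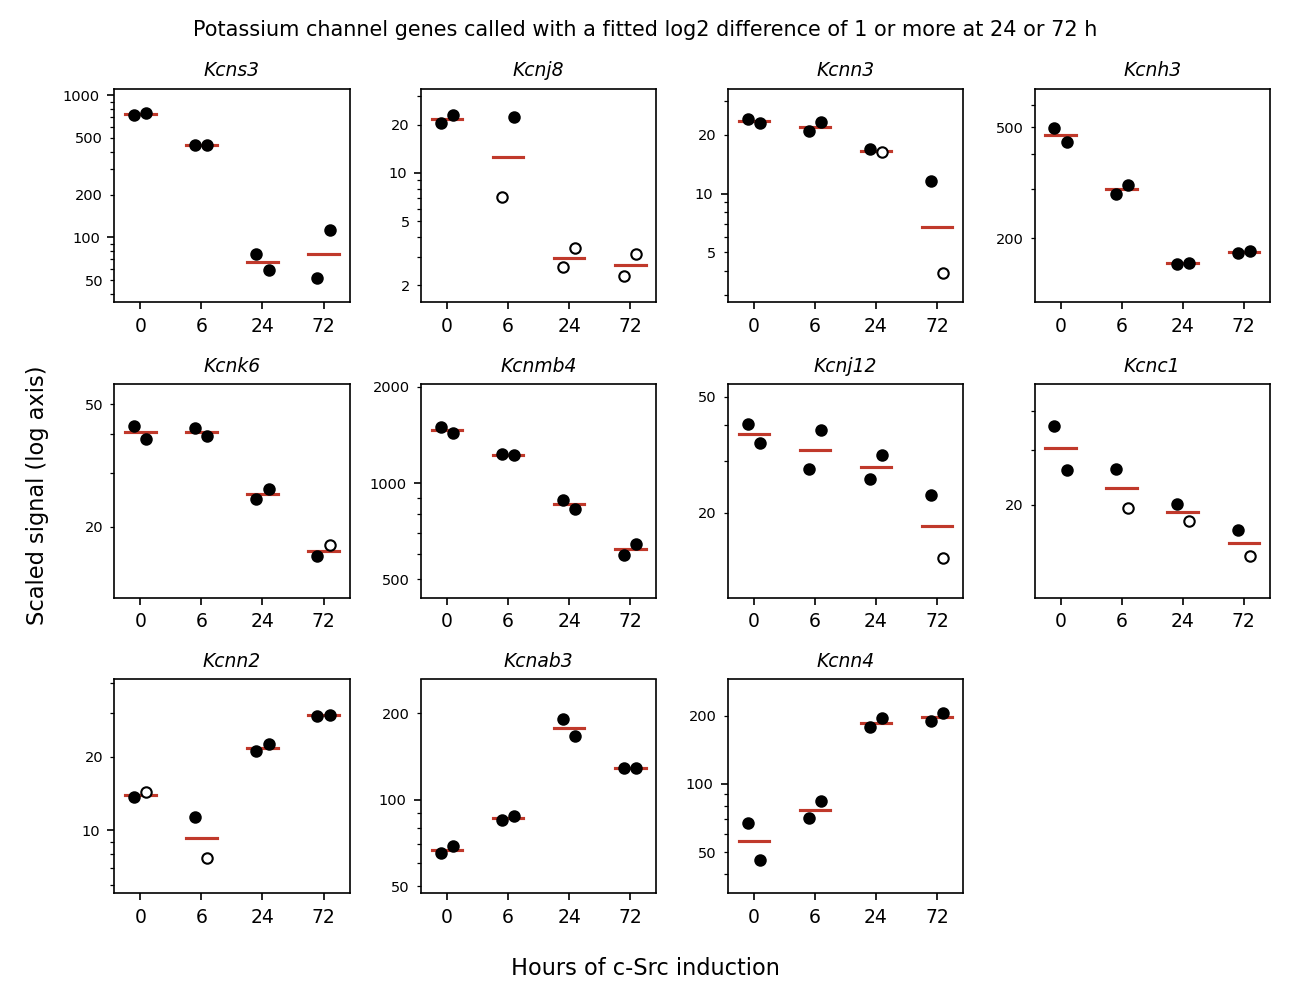
Scaled signal (log axis, a range of its own per panel) of 11 genes called with a fitted difference of 1 or more at 24 or 72 h, against hours of induction. Points are single arrays, filled where well above background and open where not, and red lines are the means of the 2 arrays on the log scale. Kcns3 drops between 6 and 24 h, Kcnmb4 is lower at each later time, and Kcnn4 lies between 178 and 206 at 24 and 72 h.

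Of the 4 auxiliary subunits that could be tested, 1 was called higher and 3 lower at both 24 h and 72 h, beside 21.4% of all genes higher and 20.1% lower at 24 h and 27.5% and 24.6% at 72 h. Kcnmb4, the beta subunit of the large-conductance calcium-activated channel that slows its gating and is best known from brain, was lower at each time than at the one before. Its probe at chr10:115854977-115855036 on mm9 gave 1497 and 1430 at 0 h, 1233 and 1224 at 6 h, 887 and 832 at 24 h, and 596 and 644 at 72 h. No 2 neighbouring times overlapped. The difference was -0.25 (SE 0.06, adjusted p = 0.0424) at 6 h, -0.77 (adjusted p = 0.000494) at 24 h and -1.24 (adjusted p = 7.12e-05) at 72 h. The 6 h call was lost in 10 of 17 alternatives, among them the ones without either array of 0, 6 or 72 h, where the adjusted p reached 0.165. The pore it joins, Kcnma1, was the one with the single signal of 74.7.

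Kcnab3 and Kcnab1 encode cytoplasmic beta subunits of Shaker family channels, and their signals went in opposite directions. Kcnab3, at chr11:69146197-69146256 on mm9, had 65.0 and 68.8 at 0 h, 85.0 and 87.5 at 6 h, 191 and 166 at 24 h, and 129 and 129 at 72 h. Its highest arrays were those of 24 h, followed by 72 h, 6 h and 0 h with no overlap. The rise was 0.37 (adjusted p = 0.0276) at 6 h, 1.42 (SE 0.08, adjusted p = 0.000178) at 24 h and 0.95 (adjusted p = 0.000297) at 72 h, and from 24 to 72 h the signal fell by 0.47 on the log2 scale (adjusted p = 0.0131). With normexp the rise was 0.85 at 24 h and 0.55 at 72 h. The rise at 6 h was lost without any 1 of the arrays of 0, 6 or 72 h, with adjusted p up to 0.129, and the fall after 24 h without either 72 h array (adjusted p = 0.0683 and 0.0721).

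Kcnab1 had 8976 and 10460 at 0 h, 8289 and 8891 at 6 h, 6283 and 6951 at 24 h, and 6740.2 and 7172 at 72 h. All arrays of 24 and 72 h lay below those of 0 and 6 h. The difference was -0.55 (SE 0.10, adjusted p = 0.00653) at 24 h and -0.48 (adjusted p = 0.0085) at 72 h. Kcnip3, a calcium-binding protein that joins Shal family channels and is also known as a transcriptional repressor, differed by -0.39 (adjusted p = 0.014) at 24 h and -0.60 (adjusted p = 0.00222) at 72 h. It had 1382 and 1394 at 0 h, 1109 and 1176 at 6 h, 1032 and 1081 at 24 h, and 844 and 990.4 at 72 h, each time but the first below both 0 h arrays. Its 24 h call was lost in 5 of 17 alternatives, among them without either 0 h array or replicate 1 of 24 h (adjusted p up to 0.0629), and its 72 h call in none.

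The calcium-activated channels of small and intermediate conductance are opened by calmodulin bound to the pore, and the 3 members that could be tested did not go one way. Kcnn4, the intermediate-conductance channel, is known from activated T cells and dividing fibroblasts, where it keeps the membrane hyperpolarised during calcium entry. It gave 67.3 and 46.4 at 0 h, 70.7 and 84.1 at 6 h, 178 and 196 at 24 h, and 189 and 206 at 72 h, with a probe at chr7:25169184-25169782 on mm9. The 24 and 72 h arrays lay above all others and overlapped each other. The rise was 1.74 (SE 0.19, adjusted p = 0.00127), or 3.34-fold, at 24 h and 1.82 (adjusted p = 0.000694), or 3.54-fold, at 72 h, and both calls held in all alternatives, with 1.07 and 1.16 under normexp. At 6 h it was 0.46 with an adjusted p of 0.151.

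Kcnn2, a small-conductance channel, had 13.6 and 14.4 at 0 h, 11.3 and 7.73 at 6 h, 21.1 and 22.5 at 24 h, and 29.3 and 29.6 at 72 h. The 6 h arrays were the lowest and the 72 h arrays the highest, and 6 of the 8 signals were well above background. Kcnn2 passed the limit through 24 and 72 h alone, the times at which its signal was highest. The rise was 0.64 (SE 0.17, adjusted p = 0.0298) at 24 h and 1.07 (adjusted p = 0.00354) at 72 h, and 0.16 and 0.30 with normexp. The 24 h call was lost when any 1 array of 0, 24 or 72 h was left out (adjusted p up to 0.116). Kcnn3, its close relative, had 24.1 and 22.9 at 0 h, 20.8 and 23.4 at 6 h, 17 and 16.3 at 24 h, and 11.6 and 3.93 at 72 h. Kcnn3 passed the limit through 0 and 6 h alone, the times at which its signal was highest. Its fall of 1.80 on the log2 scale at 72 h (SE 0.47, adjusted p = 0.0218) includes 1 array that was not well above background. Without that array, replicate 2, the difference was -1.02 (adjusted p = 0.00238), and without either 0 h array the call was lost (adjusted p = 0.0824 and 0.0726).

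Of the 4 inward rectifiers tested, 1 was called lower at 24 h and 2 at 72 h, and none was called higher. Of all genes, 20.1% were lower and 21.4% higher at 24 h, and 24.6% and 27.5% at 72 h. Kcnj8 encodes the pore of the vascular ATP-sensitive channel and marks pericytes in many tissues. Its probe at chr6:142513487-142513546 on mm9 gave 20.6 and 22.9 at 0 h, 7.12 and 22.4 at 6 h, 2.58 and 3.38 at 24 h, and 2.27 and 3.11 at 72 h. Both 0 h arrays and 1 of the 6 h arrays were well above background and 0 of the later ones. Kcnj8 passed the limit through 0 h alone, the time at which its signal was highest. It was at least 1.68-fold lower at 24 h and at least 1.86-fold lower at 72 h. The adjusted p of 0.00767 and 0.00485 are those of the fitted differences, -2.88 and -3.03. These rest on later signals that were not well above background. With the normexp method and its offset, under which the differences of dim probes shrink, the fitted difference was -0.45 at 24 h, and that call was lost.

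The partners of Kcnj8 and the markers of the cells it is known from were set beside it. Abcc9, the sulphonylurea receptor of the vascular channel, was well above background on 0 arrays, and Abcc8, the pancreatic one, was so on all 8 and was not called (-0.50, adjusted p = 0.0521 at 24 h). Of 8 pericyte markers 5 could be tested, of which none was higher and 2 were lower at 24 h and 3 at 72 h, while Cspg4 and Vtn were well above background on none of the 8 arrays. The summed signal of the list lay between 15945 and 16496 at 0 h, 16577 and 17930 at 6 h, 16018 and 16184 at 24 h, and 15595 and 15607 at 72 h. Their part in the fall of Kcnj8 was not tested, and in such bulk RNA fewer cells of a type and less RNA per cell cannot be told apart.

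Kcnj12, a strong inward rectifier of muscle and heart, had 40.2 and 34.7 at 0 h, 28.2 and 38.3 at 6 h, 26.2 and 31.6 at 24 h, and 23.0 and 14.0 at 72 h. The 72 h arrays were the lowest, 1 of them not well above background. The call was made at 72 h alone, with a difference of -1.06 (SE 0.27, adjusted p = 0.0211). Without replicate 2 of 72 h it was -0.70 (adjusted p = 0.069), and without either 0 h array the call was lost as well (adjusted p = 0.0925 and 0.0548). Kcnj4, of the same subfamily, and Kcnj13, a rectifier known from epithelia, were not called at any time.

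Of 7 tested 2-pore channels, which carry background current, 1 was called lower at 24 h and 2 at 72 h, and none higher. Of all genes, 20.1% were lower and 21.4% higher at 24 h, and 24.6% and 27.5% at 72 h. The 2 were Kcnk6 and Kcnk5, and the other 5 were not called. Kcnk6, a weak inward rectifying member found on lysosomes and in vascular smooth muscle, had 42.5 and 38.6 at 0 h, 41.9 and 39.4 at 6 h, 24.6 and 26.6 at 24 h, and 16.1 and 17.5 at 72 h. The 6 h arrays lay within the range of 0 h, the 24 h arrays below both and the 72 h arrays lowest, with no overlap between the last 3 times. The difference was 0.0064 at 6 h, -0.66 (SE 0.08, adjusted p = 0.00171) at 24 h and -1.27 (adjusted p = 0.000129) at 72 h. Replicate 2 of 72 h, at 17.5, was not well above background. With normexp the difference was -0.23 at 24 h and -0.38 at 72 h, and both calls held. Kcnk5, an alkaline-activated channel that serves volume regulation, had 104 and 83.8 at 0 h, 93.6 and 83.5 at 6 h, 81 and 60.1 at 24 h, and 58.5 and 44.5 at 72 h. It was called at 72 h, when both arrays lay below all others, with a difference of -0.87 (SE 0.21, adjusted p = 0.0156), and lost that call without replicate 1 of 0 h (adjusted p = 0.0761) or replicate 2 of 72 h (adjusted p = 0.0742).

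A further 16 genes were not called in any of the 5 comparisons. They include Kcna4 and Kcna5 of the Shaker family, Kcnd1 and Kcnd3 of the Shal family, Kcnh2, the heart's rapid delayed rectifier, Kcnq5, the mechanosensitive Kcnk4 and the halothane-inhibited Kcnk13. Kcna5, whose human protein is known to bind Src, had 117 and 102 at 0 h, 104 and 89.7 at 6 h, 108 and 109 at 24 h, and 83.9 and 101 at 72 h. The 6 and 24 h arrays overlapped those of 0 h, and both 72 h arrays lay just below them. Differences of the 16 genes from 0 h ran from -0.38 to 0.60 at 24 h and from -0.38 to 0.35 at 72 h, with 95% confidence intervals that reached -1.61 and 1.29 at 24 h. The widest interval was that of Kcnd3, and the narrowest were those of Kcnk4, at -0.11 to 0.19 at 72 h, and of Kcna4, at -0.0036 to 0.31.

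Between neighbouring later times fewer genes were called. From 6 to 24 h, 3 were higher (Kcnn4, Kcnn2 and Kcnab3) and 6 lower (Kcns3, Kcnj8, Kcnh3, Kcnk6, Kcnmb4 and Kcnab1), where 12.6% of all genes were higher and 13.6% lower. Kcnn2 rose by 1.22 over that step (adjusted p = 0.00634), or by 0.20 with normexp, and its 6 h signal of 7.73 was not well above background. The call of Kcnj8 over it was lost without any 1 array of 0, 24 or 72 h (adjusted p up to 0.128) and that of Kcnab1 without any 1 of 6, 24 or 72 h (adjusted p up to 0.155). Replicate 2 of 6 h held the only signal of Kcnj8 at those times that was well above background, so no difference is given without it.

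From 24 to 72 h, 1 was higher and Kcnk6, Kcnmb4 and Kcnab3 were lower, where 10.8% of all genes were higher and 10.9% lower. Kcnk6 differed by -0.61 (adjusted p = 0.00719) and Kcnmb4 by -0.47 (adjusted p = 0.00746). With normexp Kcnk6 differed by -0.15 and lost that call (adjusted p = 0.0754). Without any 1 array of 0 or 72 h, or without replicate 1 of 24 h, 0 genes were higher over that step, and without replicate 2 of 24 h, 2 were.

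For 5 genes a second probe passed the same limit, which shows how far a value is that of a gene rather than of a probe. When each probe was tested on its own, both probes of Kcnmb4 fell, by 1.24 (adjusted p = 9.94e-05) and 1.13 (adjusted p = 0.000305) on the log2 scale at 72 h. The other probe of Kcnip3 differed by 0.22 at 72 h (adjusted p = 0.0845), with signals of 116 and 120 at 72 h and 96.4 and 106 at 0 h, where the probe that stood for the gene fell. For Kcnd1 the probe that stood for the gene differed by 0.075 at 72 h (adjusted p = 0.689).

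The other kept probe of Kcnd1 had 53.0 and 41.4 at 0 h, 26.0 and 19.5 at 6 h, 18.8 and 15.0 at 24 h, and 15.8 and 13.0 at 72 h, with no overlap of any later time with 0 h. It differed by -1.06 (adjusted p = 0.0285) at 6 h and -1.70 (adjusted p = 0.00153) at 72 h. Both arrays of 6 h were well above background for it, but only 1 array of 24 h and 1 of 72 h. The probes lie at chrX:7413570-7413629 and chrX:7415303-7415362 on mm9. Kcnd1 therefore counts as not called by the rule for probes while 1 of its kept probes was called lower. A further Kcnd1 probe, well above background on 2 arrays and never both of a time, was not kept. Neither probe of Kcna7 was called, and the other probe of Kcnj13 was well above background on 0 arrays at 0 and 6 h. Tested on its own, that Kcnj13 probe was at least 1.38-fold higher at 24 h than at 6 h (adjusted p = 0.0114 for the fitted difference of 0.89). Only 1 array of 24 h was well above background for it. Its call as lower at 6 h than at 0 h rests on signals not well above background.

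**Figure D4:**
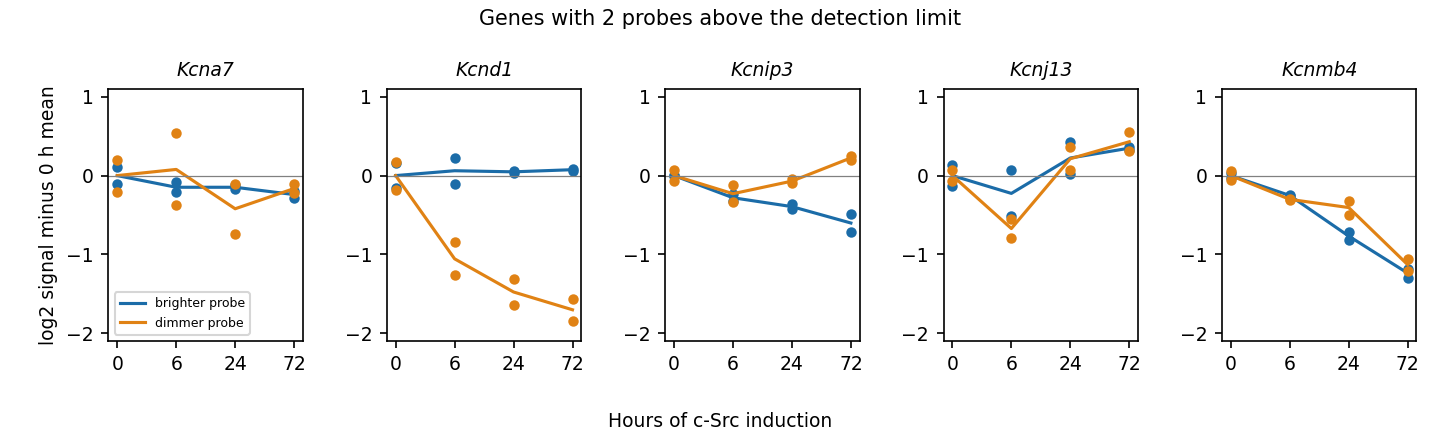
Log2 signal minus the 0 h mean (vertical axis) at 0, 6, 24 and 72 h for the 5 genes with 2 kept probes. Points are single arrays and lines join the means, in blue for the probe that stood for the gene (brighter) and orange for the other (dimmer). The lines run together for Kcnmb4 and apart for Kcnd1 and Kcnip3.

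Genes that work with these channels were counted by list, to be read against the 21.4% of all genes higher and 20.1% lower at 24 h, and the 27.5% higher and 24.6% lower at 72 h. Of 13 tested partners 3 were higher and 1 lower both at 24 h and at 72 h, with a median of 0.0021 at 24 h and -0.086 at 72 h. Lrrc26 is a gamma subunit that lets the large-conductance calcium-activated channel open at resting voltage. It was well above background at 24 and 72 h and on no earlier array. Its signal was at least 2.34-fold higher at 24 h and at least 1.28-fold at 72 h. The adjusted p of 0.00456 at 24 h is that of the fitted difference. Nedd4l, a ubiquitin ligase known to lower ion channels at the membrane, rose by 0.76 at 24 h and 0.85 at 72 h (adjusted p = 0.00178). Akap9, a kinase anchoring protein, rose by 0.61 at 72 h.

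Sodium and potassium pumps build the gradient that these channels use, and their subunits and regulators went both ways. Of 9 tested, 3 were higher and 3 lower at 24 h, and 2 and 4 at 72 h. Atp1b2, a beta subunit of the sodium pump, differed by -1.54 at 24 h and -1.93 (adjusted p = 5.84e-05) at 72 h. Fxyd1, a regulator of that pump, differed by -1.46 and -1.86 (adjusted p = 0.000239), and Fxyd3, another, was -2.33 at 24 h and at least 5.23-fold lower at 72 h.

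Cotransporters that move potassium with chloride went both ways, with 2 of 7 higher and 3 lower at 24 h and 4 and 3 at 72 h. Slc12a5, which extrudes chloride in neurons, differed by -1.18 at 24 h and -1.14 at 72 h (adjusted p = 0.000142). Slc12a2, which brings sodium, potassium and chloride into the cell, rose by 0.59 and 0.86 (adjusted p = 0.000133), and Slc12a8 differed by -0.76 at 72 h. Of 4 tested cyclic nucleotide and intracellular cation channels, none was higher and 2 were lower at 24 h and 1 at 72 h, with Tmem38a, a channel of the endoplasmic reticulum, at -0.42 and -0.63 and Tmem175, a lysosomal one, at -0.25 (adjusted p = 0.0478) at 24 h.

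Kcnn4 is known to support calcium entry, and the store-operated calcium entry genes were counted for that reason. None of 5 was higher, and 3 were lower at 24 h and 4 at 72 h, with a median of -0.39 at 72 h. Orai1, the pore, differed by -0.69 at 72 h (adjusted p = 0.00414), Stim1, the calcium sensor of the endoplasmic reticulum, by -0.43 and Orai3 by -0.39. Of 5 volume-regulated anion channel subunits 2 were higher at both times, Lrrc8c by 0.62 and Lrrc8d by 0.43 at 72 h. With 4 to 13 genes tested in each, no list was tested against the shares of all genes, and nothing particular to a list is read from these counts.

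**Figure D5:**
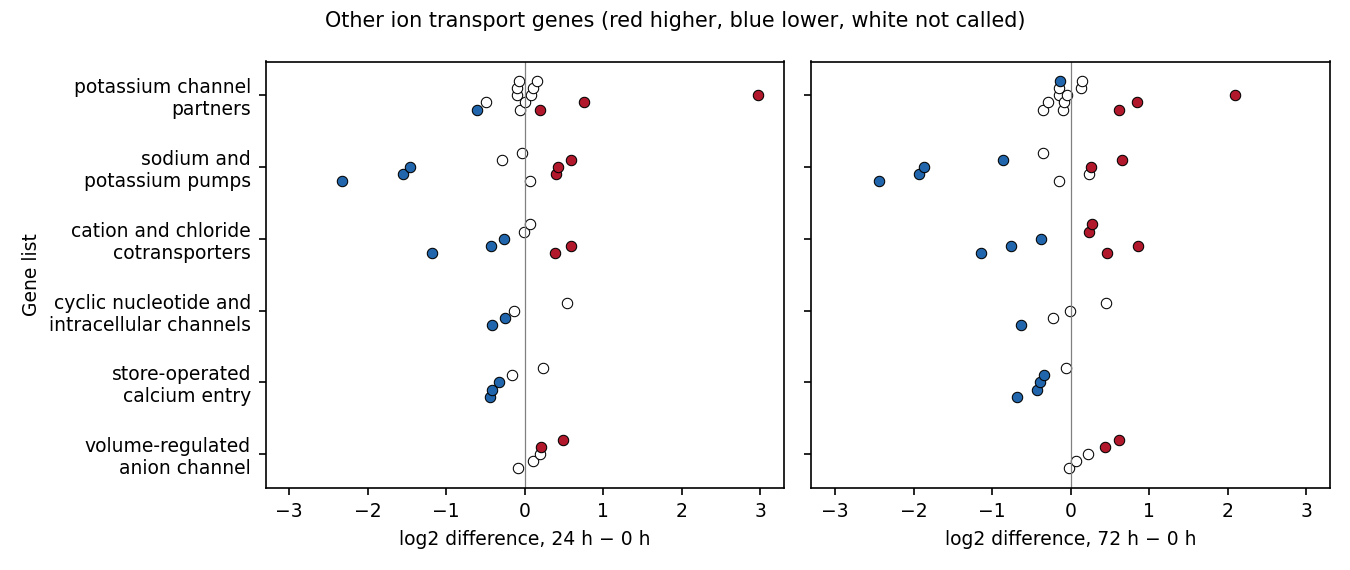
Log2 differences of the tested genes of 6 ion transport lists, 24 h minus 0 h on the left and 72 h minus 0 h on the right. Each point is a gene, red where called higher, blue where called lower and white where not called. Lrrc26 lies furthest to the right and Fxyd3 furthest to the left in both panels, both fitted against times at or near background.

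Several of the genes above are best known from neurons and muscle. Of 7 neuron markers 4 could be tested, with 1 higher and 1 lower at 24 h and none higher and 2 lower at 72 h, and Rbfox3 and Stmn2 were well above background on none. Of 7 smooth muscle markers 5 could be tested, with 1 higher and 1 lower at 24 h and 1 and 2 at 72 h, and Myh11 and Lmod1 were well above background on none. The summed signal of the neuron list lay between 6879 and 6972 at 0 h, 6805 and 7289 at 6 h, 6778 and 7179 at 24 h, and 5856 and 6683 at 72 h, and that of the smooth muscle list between 14841 and 15767 at 0 h, 30375 and 31307 at 6 h, 25732 and 27152 at 24 h, and 24773 and 25751 at 72 h. Fibroblast markers moved too, with 2 higher and 8 lower of 10 at 72 h and a summed signal of 288296 to 311945 at 0 h, 310913 to 316142 at 6 h, 267321 to 276531 at 24 h, and 242553 to 242801 at 72 h. Of 5 macrophage markers 2 could be tested and both were higher at 6, 24 and 72 h, with a summed signal of 406 to 435 at 0 h, 732 to 774 at 6 h, 695 to 741 at 24 h and 562 to 611 at 72 h, and Ptprc and Adgre1 were well above background on none. Of 5 epithelial markers 2 could be tested, Krt8 and Krt18, and both were higher at 24 and 72 h, with a sum of 983 to 1108 at 0 h, 1104 to 1119 at 6 h, 1475 to 1785 at 24 h and 1786 to 1857 at 72 h, and Epcam, Cdh1 and Cldn4 were well above background on none. Of 5 endothelial markers 3 could be tested, with none higher and 1 lower at 24 and 72 h, a sum between 847 and 942 over all arrays, and Cdh5 and Cldn5 well above background on none. The part of these shifts in the potassium channel results was not tested.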

How the data were processed

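Total RNA was labelled with Cy3 and hybridised to 1-colour 8x60K mouse arrays, per the labels' protocols. The deposited scanner files hold an intensity per spot, background-subtracted by Feature Extraction (10.5.1.1 and mm9 per the file headers, 10.7.3.1 per the submitters' processing notes). The intensity values in the deposited value table differ from these by at most 0.497%. The 8 arrays share 1 slide and 1 scan.

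The log2 processed signal minus each array's 75th percentile (370.3 to 393, over 59305 spots) was used. Outlier spots were dropped, spots of a probe averaged, and a probe kept if well above background on both arrays of at least 1 time. The kept probe with the highest mean stood for its gene. Probes were named by accession (26582), symbol (2602), synonym (492) or the file (26005). The 4 time means were fitted to 8 arrays with limma 3.58.1 (R 4.3.3, 4 residual and 1.71 prior degrees of freedom). For a gene above background on 0 arrays of a time, the fold is a bound. It is set per array at the lowest signal to pass as well above background, or at the gene's own signal if higher. An adjusted p beside a bound is that of the fitted difference. Kept potassium channel genes are named, except a few that are not reported here, and up to 3 called genes of each other list. The number of arrays limits the precision. The channel genes and all lists were chosen with earlier results of these data known.

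Same-numbered arrays deviated together with r between 0.0557 and 0.172, so the numbers were not taken as pairs. The fit was tested on simulated data for 6 h against 0 h. Alternatives were median and quantile scaling, normexp correction with an offset of 50, other filters, every probe, a variance trend, the value table, the replicate block and leaving out each array. Software was jsonlite 2.0.0, data.table (1.17.8), Python 3.11.15, pandas 2.3.3 and matplotlib 3.10.9.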

Additional observations from a re-analysis of the deposited data

How the results depend on the processing

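Of 48 calls of potassium channel genes over 5 comparisons, 28 were kept in all alternatives run and 20 were lost in at least 1, and none changed direction. Of 127 differences that were not called, 34 gained a call in at least 1. With median scaling the genes called lower numbered 1 at 6 h and 6 at 24 h, and those called higher 5 at 24 h. Of all 20839 genes, 527 were then lower at 6 h, and 2052 lower and 6043 higher at 24 h. Quantile scaling and a variance trend each gave 2 higher at 6 h. Normexp correction and no filter each gave 0 higher at 6 h, and no filter gave 1 lower at 6 h and 6 lower at 24 h. With only probes on all 8 arrays, 7 were lower at 24 h and 2 higher and 7 lower at 72 h, since fewer genes were tested. From 24 to 72 h, 0 were higher under normexp, no filter, all 8 arrays, every probe, the variance trend and the replicate block. The cause of the other shifts was not tested. The replicate block otherwise gave 4 higher and 12 lower at 24 h and 4 and 14 at 72 h. Leaving out single arrays gave 0 to 2 higher and 1 to 3 lower at 6 h, 2 to 4 and 6 to 11 at 24 h, 4 to 5 and 9 to 13 at 72 h, 3 to 4 and 4 to 6 from 6 to 24 h, and 0 to 2 and 3 to 4 from 24 to 72 h. With normexp, 7 of 22 called differences from 0 h of genes on all 8 arrays and 13 of 13 of the other genes were over 1.5 times smaller. Among them, Kcnn4 differed by 1.07 at 24 h, against 1.74 as reported, and Kcnk6 by -0.23, against -0.66.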
